A study of Mus musculus with 6 samples.

Results

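The proteasome subunit genes were followed in isolated mouse pancreatic islets exposed to cisplatin. They were taken as every probe row of the count table whose symbol begins with Psma, Psmb, Psmc or Psmd and a digit, with the immunosubunits Psmb8 and Psmb9 left out. This gave 54 rows for 38 genes, of 30146 rows for 21400 gene symbols in all. Of these, 20 rows for 17 genes belong to the core particle and 28 rows for 17 genes to the regulatory particle. The other 6 rows are those of the assembly chaperones Psmd5, Psmd9 and Psmd10 and of Psmc3ip, a recombination factor that shares the name pattern and is no proteasome subunit. RNA was counted by TempO-Seq, which ligates neighbouring probes on their target RNA and sequences the product. Cisplatin islets were kept for 48 h with the drug at 10 uM, a platinum compound that crosslinks DNA, and the vehicle islets for the same time with saline at 0.9%. All islets came from 3 male wild-type (WT) mice of the strain C57Bl/6, and each mouse gave islets to both treatments, so that each group has 3 libraries; an age is not given in the sources used here.

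The proteasome is the main protease of the cytosol and nucleus and degrades proteins tagged with ubiquitin. Its barrel-shaped core particle is built of outer rings of alpha subunits and inner rings of beta subunits, some of which carry the proteolytic sites. The regulatory particle that caps it has a base, with a ring of ATPases that unfold the substrate, and a lid that removes ubiquitin. In mammals many of these genes are transcribed together under Nfe2l1 when proteasome activity falls, through antioxidant response elements in their promoters, and NF-Y binding at CCAAT boxes also contributes to their transcription. Beta cells make large amounts of secretory protein and depend on the proteasome to clear misfolded chains.

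Promoter sequence from RefSeq (build GRCm38.p6), covering the 250 bases before the start site, was available for 31 of the 38 genes in 33 windows. The windows of Psmb3 and Psma3 are shown because these core genes are both among the called rows and moved in opposite directions. They lie at chr11:97703184-97703433 and chr12:70974373-70974622, both on the plus strand, and the CCAAT box is in capitals.
Psmb3: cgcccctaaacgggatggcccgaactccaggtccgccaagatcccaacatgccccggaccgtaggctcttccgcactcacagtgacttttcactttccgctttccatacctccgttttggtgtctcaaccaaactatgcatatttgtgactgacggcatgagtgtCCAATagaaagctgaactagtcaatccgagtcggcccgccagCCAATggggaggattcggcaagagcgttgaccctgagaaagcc
Psma3: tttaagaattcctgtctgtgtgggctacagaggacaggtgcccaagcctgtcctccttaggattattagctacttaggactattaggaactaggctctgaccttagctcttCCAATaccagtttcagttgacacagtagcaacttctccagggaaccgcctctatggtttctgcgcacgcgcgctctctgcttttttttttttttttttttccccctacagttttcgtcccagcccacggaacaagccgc
The window of Psmb3 holds 2 CCAAT boxes, 85 and 43 bases before the start site, and that of Psma3 holds 1, 139 bases before it. A CCAAT box on either strand was found in 13 of the 33 windows (39.4%), against 33.8% of all 32851 promoter windows of that length. The element core TGACNNNGC, searched on both strands, was found in 5 windows (15.2%), against 10.2% of all. These 5 are shown with up to 12 bases on each side, clipped at the window's edge and written on the strand that carries the element, which is in capitals.
Psmd9: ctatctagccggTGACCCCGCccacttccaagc
Psmb6: gactaaagagagTGACGGAGC
Psmd12: ggggggcaaatgTGACACAGCaga
Psmc6: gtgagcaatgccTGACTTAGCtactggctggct
Psmb5: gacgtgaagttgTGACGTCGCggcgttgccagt
These stretches lie at chr5:123228147-123228179 on the plus strand for Psmd9, chr11:70525336-70525356 on the plus strand for Psmb6, chr11:107479278-107479301 on the minus strand for Psmd12, chr14:45329585-45329617 on the minus strand for Psmc6 and chr14:54618022-54618054 on the minus strand for Psmb5. Psmb5 was too low to test, and the other 4 genes were not called in the reported fit. A match of letters is a description of the window and not evidence of binding.

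The libraries differed in ways that bear on all values. Cisplatin libraries held 1116916, 1348297 and 1366829 counts, against 1998063, 1470227 and 2272276 in vehicle libraries. Mitochondrially encoded rows took 2.83, 3.11 and 28.6% of the counts with cisplatin, against 1.74, 0.188 and 0.770% with vehicle, so that cisplatin library 3 stood apart. That library was the lowest of the cisplatin group in 22 of the 32 tested proteasome rows (68.8%), against 33.4% of all tested rows. Vehicle library 2 was the highest of its group in 22 of the 32 (68.8%), against 39.97% of all tested rows, and vehicle library 1 the lowest in 17 (53.1%), against 30.1%. Among marker lists, the tested genes called lower with cisplatin were 4 of 8 for beta cells, 2 of 5 for alpha cells, 1 of 4 for delta and PP cells, 5 of 6 for macrophages and immune cells, 2 of 3 for endothelium and 1 of 4 for stroma, against 13.9% of all tested rows. None of the tested acinar genes (1) or duct genes (2) was called in edgeR's test or in DESeq2, with 1 duct gene at an unadjusted p under 0.05, and 1 endothelial gene was called higher. The part of these shifts in the values below was not tested, and in whole islets fewer cells of a type and less RNA per cell cannot be told apart.

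Proteasome rows were called higher more often than lower with cisplatin, and the calls were spread over both particles. Of the 54 rows, 32 rows for 26 genes had enough counts to be tested, and the other 22 held at most 51 counts over all 6 libraries. With edgeR's quasi-likelihood test and p-values adjusted over all 9381 tested rows, 6 rows were called higher and 1 lower at an adjusted p under 0.05. These 7 are 21.9% of the tested proteasome rows, against 25% of all tested rows, so their share is close to the background. The higher calls are 18.8% of the tested proteasome rows, against a background of 11.1%, and the lower call is 3.13%, against 13.9%. That background is not matched for genomic span. With 1 probe per gene, 800 of 2334 tested genes of 40 kb or more were called lower, against 46 of 1815 under 10 kb. Only 4 of the 26 tested member genes span 40 kb or more, so these shares are not particular to the proteasome without that match. The median log2 fold change, cisplatin minus vehicle, was 0.58 over the tested proteasome rows and -0.07 over all tested rows, and 25 of the 32 were fitted above 0. The groups did not overlap, with cisplatin higher, in 9 of the 32 rows, against 19.1% of all tested rows, and with cisplatin lower in 2 of the 32, against 24.3%. At an unadjusted p under 0.05 in edgeR's test stood 9 higher and 2 lower of the 32 rows, against 1605 higher and 1896 lower of all 9381 tested rows.

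**Figure D1:**
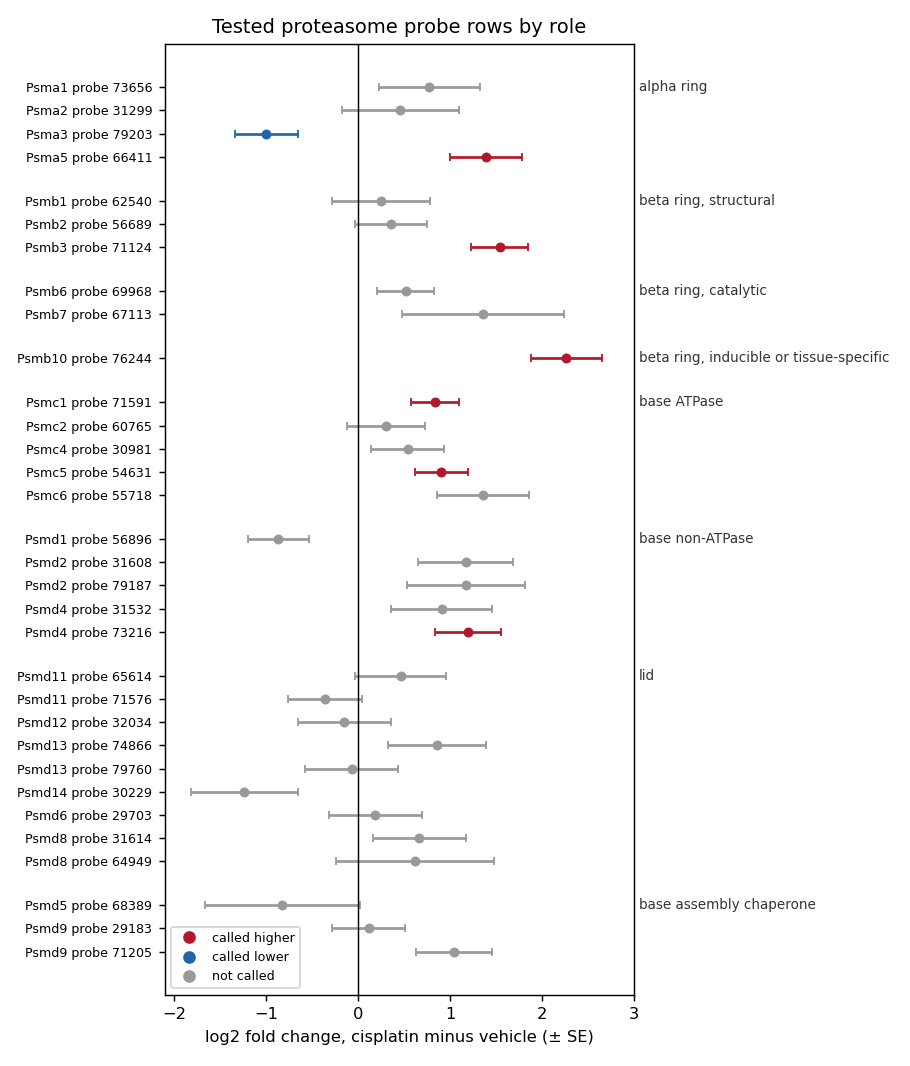
Log2 fold change, cisplatin minus vehicle, with its SE for the 32 tested proteasome rows, grouped by role; red points were called higher, blue lower and grey not called. The 6 rows called higher lie between 0.83 and 2.27, in the core particle and the base, and the row called lower, Psma3, lies at -0.996.

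These counts depend on which libraries enter and on the scaling. Without vehicle library 1 or without vehicle library 3 only Psmb3 and Psmb10 were called higher, and without cisplatin library 3 there were 8 higher calls; with any single library left out no row was called lower. When libraries were scaled by their totals over tested rows alone, without TMM factors, 2 rows were called higher (Psmb3 and Psmb10) and 3 lower (Psma3, Psmd1 and Psmd14). Over all rows that scaling gave 459 higher and 2023 lower calls, against 1040 and 1304 in the reported fit, and it moved the median of all rows to -0.54. The proteasome rows then had a median of 0.15, with 19 of 32 above 0.

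In the core particle 3 of 10 tested rows (30%) were called higher, Psmb10, Psmb3 and Psma5, against 11.1% of all tested rows. Psma3 was the 1 row called lower (10%), against 13.9% of all tested rows. The median over the 10 rows was 0.65, against -0.07 over all tested rows. Among the 6 rows not called, fitted values ran between 0.25 and 1.36.

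Psmb3, a structural subunit of the beta ring, had the highest mean level of the proteasome rows, though levels of different rows also depend on their probes. CPM here is a count relative to its library's total over the tested rows, after TMM scaling. Psmb3 stood at 1639, 1010 and 1946 CPM with cisplatin, against 459.7, 604.8 and 516.4 CPM with vehicle. Every cisplatin library lay above every vehicle library. The mean was 1532 ± 477.5 CPM with cisplatin and 527.0 ± 73.1 CPM with vehicle (SD, n = 3 each), a 2.91-fold rise with a log2 fold change of 1.54 ± 0.31 (SE) and an adjusted p of 0.00271. Psmb3 was called in all 19 alternative fits, with log2 fold changes of 1.08 to 1.87 and an adjusted p of at most 0.0464.

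Psmb10, the interferon-inducible catalytic subunit that replaces Psmb7 in immunoproteasomes, had the largest log2 fold change of the tested proteasome rows. Its abundant probe stood at 105.7, 58.9 and 125.5 CPM with cisplatin, against 23.7, 17.7 and 18.5 CPM with vehicle. The lowest cisplatin library lay well above the highest vehicle library. The rise was 4.81-fold, with a log2 fold change of 2.27 ± 0.38 and an adjusted p of 0.000975, and it was called in all 19 alternatives (1.79 to 2.52, adjusted p of at most 0.0351). Its other probe was too low to test. The immune marker list had a summed level of 16.9 to 101 CPM with cisplatin and 163 to 313 CPM with vehicle. None of its 10 genes was at 0 in all libraries, and 5 of 6 tested were called lower. The exception, Lyz2, stood at 0, 0 and 20.4 CPM with cisplatin, against 16.2, 10.7 and 15.3 CPM with vehicle. Its fitted log2 fold change was -1.11 ± 1.09, without a call. Cd68, too low to test, stood at 0, 11.4 and 9.65 CPM with cisplatin, against 6.32, 3.79 and 5.12 CPM with vehicle. The other untested genes of the list had lower means with cisplatin. These were 0 CPM against 1.31 CPM with vehicle for Adgre1, 0 against 1.05 for H2-Ab1 and 1.07 against 3.37 for Ptprc. Which cells carried the Psmb10 signal was not tested.

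The other immunosubunits, which the rule leaves out, had lower counts. Psmb8 held 1, 29 and 4 counts with cisplatin, against 0, 0 and 2 with vehicle, so most of its signal came from 1 library. Its ratio was 35.7, with an exact 95% counting interval of 9.16 to 307. That interval treats counts as independent and leaves out the spread between libraries. Psmb9 stood at 17.8, 22.8 and 24.7 CPM with cisplatin, against 2.37, 12.6 and 14.2 CPM with vehicle, and its log2 fold change of 1.16 ± 0.65 was not called (adjusted p = 0.213).

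The alpha ring, which gates entry to the core, held changes in both directions, with 1 row called higher and 1 lower of 4 tested. Of all tested rows 11.1% were called higher and 13.9% lower, and 4 rows are too few to set against these shares. Psma5 stood at 151.4, 106.5 and 74.0 CPM with cisplatin, against 26.5, 60.6 and 40.5 CPM with vehicle. The groups did not overlap, and the log2 fold change was 1.39 ± 0.39 (adjusted p = 0.0186). Psma3 stood at 51.6, 55.1 and 35.4 CPM with cisplatin, against 100.4, 111.1 and 73.2 CPM with vehicle. It was lower with cisplatin in every mouse and without overlap, with a log2 fold change of -0.996 ± 0.34 (adjusted p = 0.0444). That call was lost in each of the 9 fits that left out a library or a mouse (-1.18 to -0.81, adjusted p of 0.0587 to 0.176) and when mitochondrially encoded rows were left out. The ratio of Psma5 to Psma3 counts within a library, which no scaling moves, was 2.93, 1.93 and 2.09 with cisplatin and 0.264, 0.545 and 0.554 with vehicle. This pair was chosen after its values were seen. The tested rows of Psma1 and Psma2 were not called (0.78 ± 0.55 and 0.46 ± 0.64).

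**Figure D2:**
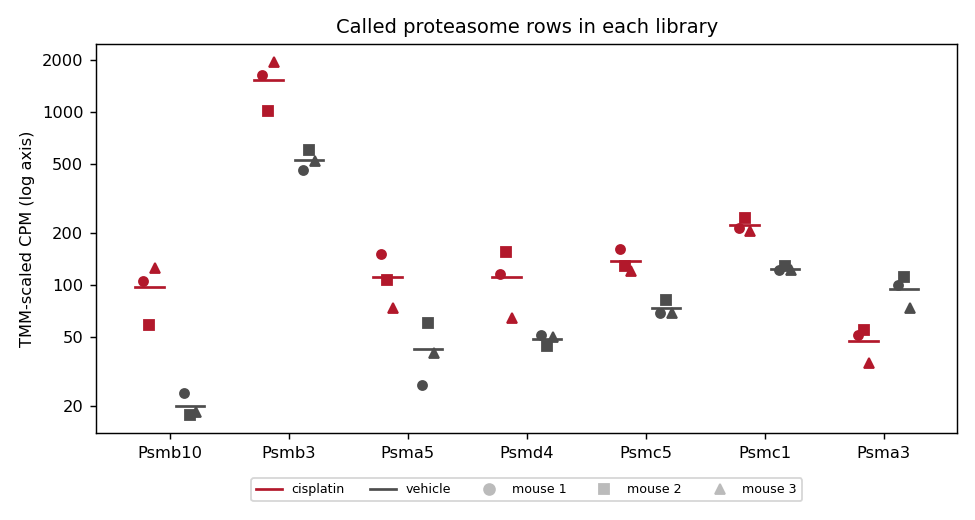
TMM-scaled CPM, on a log axis, of the 7 called proteasome rows in each library, with cisplatin in red to the left of vehicle in grey; bars mark group means and point shapes mark the mouse. No cisplatin library overlaps a vehicle library in any of the 7 rows, and Psma3 is the row in which cisplatin lies lower. The rows were called from these same values, so their separation largely follows from the choice. Of all tested rows 19.1% did not overlap with cisplatin higher and 24.3% with cisplatin lower.

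The constitutive catalytic subunits were not called. Psmb6, which carries the caspase-like site, stood at 194.5, 186.3 and 170.5 CPM with cisplatin, against 79.5, 164.2 and 142.1 CPM with vehicle. The groups did not overlap, but the vehicle libraries spread widely and the log2 fold change was 0.52 ± 0.31 (adjusted p = 0.242). Psmb7, which carries the trypsin-like site, stood at 33.0, 15.2 and 1.07 CPM with cisplatin, against 8.30, 1.89 and 8.66 CPM with vehicle. Cisplatin library 3 was the lowest of all and cisplatin library 1 the highest, and the log2 fold change was 1.36 ± 0.88 (adjusted p = 0.289). Psmb5, which carries the chymotrypsin-like site, held 8, 1 and 4 counts with cisplatin and 6, 17 and 15 counts with vehicle and was too low to test. Neither tested row of these subunits reached an unadjusted p under 0.05 or a call in DESeq2. The structural subunits Psmb1 and Psmb2 overlapped between groups (0.25 ± 0.53 and 0.35 ± 0.39).

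In the regulatory particle 3 of 19 tested rows (15.8%) were called higher, Psmd4, Psmc5 and Psmc1, against 11.1% of all tested rows. In edgeR's test 0 were called lower, against 13.9% of all tested rows, with 1 lower row at an unadjusted p under 0.05. DESeq2 also called 0 lower. The median over the 19 rows was 0.62, against -0.07 over all tested rows. All 3 called rows belong to the base.

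Psmc1, an ATPase of the base ring, stood at 213.9, 244.3 and 204.8 CPM with cisplatin, against 121.4, 129.4 and 121.2 CPM with vehicle. Both groups were tight and did not overlap, and the log2 fold change was 0.83 ± 0.26 (adjusted p = 0.0303). Psmc5, another ATPase of the ring, stood at 161.5, 129.3 and 121.2 CPM with cisplatin, against 69.2, 82.1 and 69.3 CPM with vehicle. These groups did not overlap either, and the log2 fold change was 0.90 ± 0.29 (adjusted p = 0.0345), with an adjusted p of 0.0531 when the mouse was fitted as a block. Psmc6 was at 74.4, 84.6 and 25.7 CPM with cisplatin, against 15.8, 39.8 and 17.7 CPM with vehicle. It overlapped only through mouse 2's vehicle library and cisplatin library 3, missed the threshold (1.36 ± 0.50, adjusted p = 0.0608) and was called with the mouse block. Psmc2 and Psmc4, the other tested ATPases, overlapped between groups.

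Psmd4, a ubiquitin receptor of the base, was called through its more abundant probe. That probe stood at 115.0, 155.9 and 64.3 CPM with cisplatin, against 51.4, 44.2 and 50.4 CPM with vehicle. The groups did not overlap, and the log2 fold change was 1.20 ± 0.36 (adjusted p = 0.0255). The other tested Psmd4 probe stood at 27.1, 21.9 and 84.7 CPM with cisplatin, against 29.6, 11.4 and 28.7 CPM with vehicle, overlapped between groups and was not called (0.91 ± 0.55, adjusted p = 0.250). Psmd1, a large scaffold of the base, had the opposite sign. It stood at 46.5, 36.1 and 44.0 CPM with cisplatin, against 62.9, 80.8 and 87.4 CPM with vehicle. Every cisplatin library lay below every vehicle library, but the change of -0.87 ± 0.33 missed the threshold (adjusted p = 0.0721). Both probes of Psmd2, the other scaffold, were fitted at nearly the same value (1.17 ± 0.52 and 1.17 ± 0.64) without a call.

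The calls of Psmc1, Psmc5, Psma5 and Psmd4 were lost in several alternatives. Over the 9 fits that left out a library or a mouse, Psma5 was called in 5, Psmd4 in 3, Psmc1 in 2 and Psmc5 in 2. The log2 fold changes in those fits were 0.75 to 0.95 for Psmc1, 0.75 to 1.02 for Psmc5, 0.87 to 1.75 for Psma5 and 0.81 to 1.49 for Psmd4. With no filter on low counts Psmc1 and Psmc5 were not called (adjusted p of 0.179 and 0.164). Their log2 fold changes stayed positive in all 19 alternatives, with the lowest at 0.37 for Psmc1 and 0.48 for Psmc5 under library totals alone.

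The lid had no called row among 9 tested, against 25% of all tested rows called in edgeR's test. Whether so few rows differ from that share was not tested. None of the 9 stood at an unadjusted p under 0.05 in edgeR's test, none was called in DESeq2, and their median was 0.19. Psmd14, the deubiquitinase that strips ubiquitin chains from substrates, stood at 6.77, 10.5 and 12.9 CPM with cisplatin, against 12.3, 23.4 and 35.0 CPM with vehicle. The groups overlapped narrowly, and the log2 fold change was -1.24 ± 0.58 (adjusted p = 0.139), the lowest fitted value of the tested proteasome rows. The other lid rows, of Psmd6, Psmd8, Psmd11, Psmd12 and Psmd13, were fitted between -0.36 and 0.86.

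Among the chaperones that assemble the base, 0 of 3 tested rows were called in edgeR's test or in DESeq2, with 1 at an unadjusted p under 0.05. Of all tested rows 25% were called in edgeR's test, and 3 rows are too few to set against that share. Psmd9 had a probe at 45.7, 92.2 and 38.6 CPM with cisplatin, against 44.3, 69.5 and 49.98 CPM with vehicle, which gave 0.11 ± 0.39 (adjusted p = 0.870). Its other probe stood at 58.35, 28.5 and 49.3 CPM with cisplatin, against 19.0, 24.0 and 23.2 CPM with vehicle. This second probe did not overlap between groups and gave 1.04 ± 0.41 (adjusted p = 0.0795). Psmd5 was at 2.54, 11.4 and 4.29 CPM with cisplatin, against 9.88, 18.9 and 3.94 CPM with vehicle (-0.82 ± 0.85, adjusted p = 0.524). Psmd10 was too low to test, with 11, 1 and 6 counts with cisplatin and 7, 0 and 4 counts with vehicle. After scaling, it averaged 5.56 ± 4.24 CPM with cisplatin and 1.45 ± 1.39 CPM with vehicle (SD), and the groups overlapped. Psmc3ip held 6 counts with cisplatin and 2 with vehicle over both of its rows.

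A pair of tested probes was available for 6 genes, Psmd2, Psmd4, Psmd8, Psmd9, Psmd11 and Psmd13. The fold changes of the paired probes differed by 0.0054 to 0.93 on the log2 scale. In an exact permutation test of the log2 ratio of the paired probes between the groups, which allows no p below 0.1, p ran between 0.3 and 0.8, and all 6 adjusted values were 0.8. At this size the test could not show a difference between probes of a gene, and probes of a gene share its RNA and are not replicates.

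Summed over rows, core particle counts stood at 2389, 1633 and 2500 CPM with cisplatin, against 807.2, 1149 and 913.1 CPM with vehicle. Regulatory particle counts stood at 1201, 1196 and 833.3 CPM with cisplatin, against 635.6, 857.4 and 719.8 CPM with vehicle. The core sum did not overlap between groups, and the regulatory sum overlapped between cisplatin library 3 and vehicle library 2.

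Within a library, the ratio of core to regulatory counts was 1.99, 1.37 and 3.00 with cisplatin, against 1.27, 1.34 and 1.27 with vehicle. The cisplatin values spread over a wide range above a tight vehicle group, with mouse 2 at nearly equal ratios in both arms. Psmb3 alone made up 68.6, 61.8 and 77.9% of core counts with cisplatin, against 57.0, 52.6 and 56.6% with vehicle. Without Psmb3 the ratio was 0.625, 0.521 and 0.664 with cisplatin, against 0.547, 0.635 and 0.551 with vehicle, and the groups overlapped. Without Psmb3 and Psmb10 it was 0.533, 0.467 and 0.490 with cisplatin, against 0.505, 0.606 and 0.524 with vehicle. These rows were left out after their changes were seen, as the core rows with the largest rises, while the lowered Psma3 was kept, so a fall of the ratio follows from the choice. These sums depend on which rows the panel counts well and give no amount of assembled particles.

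**Figure D3:**
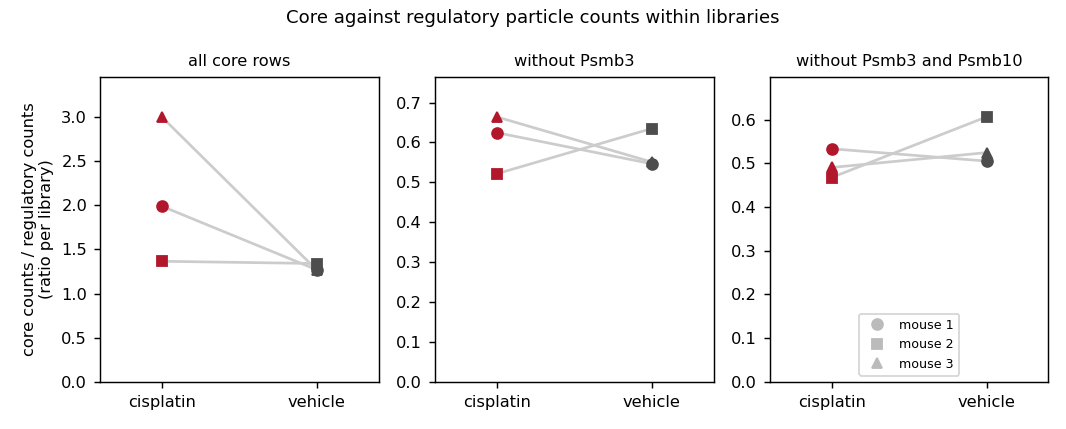
Ratio of summed core to summed regulatory particle counts in each library, for all core rows, without Psmb3, and without Psmb3 and Psmb10; lines join both libraries of a mouse and each panel has its own axis from 0. The ratio lies above vehicle in all 3 mice with all core rows, and the groups overlap once Psmb3, a row chosen for its rise, is left out.

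Across the 26 tested member genes, with the most abundant probe for each, the fold change was lower for genes with a longer genomic span. Spearman's rho was -0.47 and Pearson's r with log10 span was -0.56, given as a description because the genes share libraries and scaling. Over 7078 tested genes with a span in RefSeq the values were -0.57 and -0.56, so the relation was not particular to the proteasome. The 7 members under 10 kb had a median log2 fold change of 0.67, against 0.63 for all tested genes of that span. Of these members 3 were called higher and 0 lower, against 459 and 46 of all 1815 tested genes of that span. At 10 to 20 kb 2 of 10 members were called higher and 0 lower, against 231 and 46 of 1413 genes. At 20 to 40 kb 1 of 5 was called higher and 1 lower, against 131 and 92 of 1516. At 40 kb or more 0 of 4 were called, against 40 higher and 800 lower of 2334. The 10 members of 10 to 20 kb had a median of 0.62, against 0.34 for all genes, and the 5 members of 20 to 40 kb had 0.25, against 0.01. The 4 members of 40 kb or more, Psmd14 (88.7 kb), Psmd1 (74.7 kb), Psmb7 (55.9 kb) and Psmd11 (44.6 kb), had a median of -0.61, against -0.99 for all genes of that span. Among the called genes, Psma5 and Psma3 both span 20 to 40 kb and differ in sign. Without the 2 members whose spans lie farthest from the median, rho was -0.43 and r was -0.52.

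**Figure D4:**
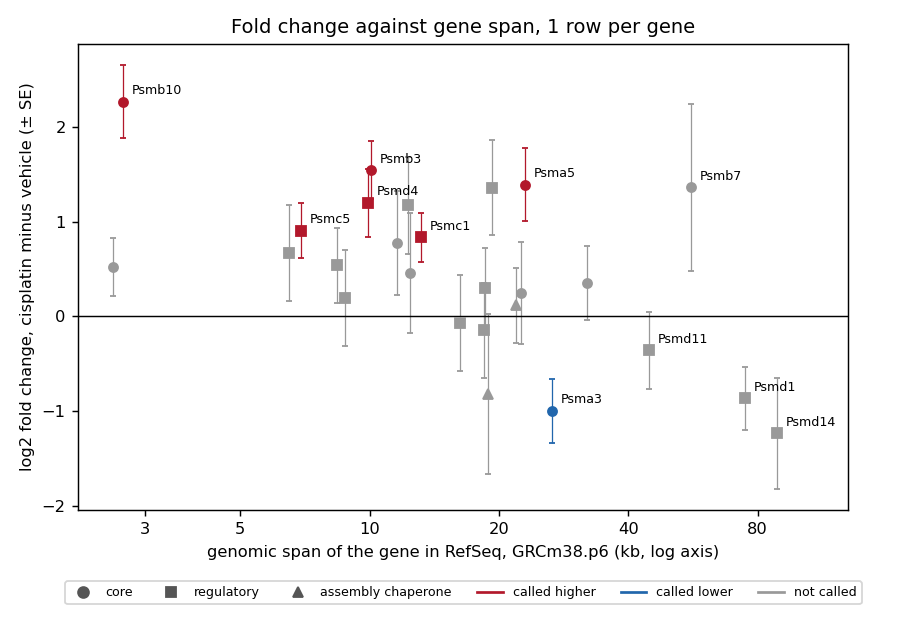
Log2 fold change, cisplatin minus vehicle (± SE), of the 26 tested member genes against genomic span in kb on a log axis; circles are core, squares regulatory and triangles assembly chaperone genes, in red where called higher, blue where called lower and grey where not called. Members under 10 kb all lie above 0, and 3 of the 4 members of 40 kb or more lie below it.

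Genes around the proteasome were counted from lists chosen with earlier results of these data known. Over all tested rows 11.1% were called higher and 13.9% lower, and the lists hold 3 to 8 tested genes each, so a single call moves a list's share widely. Of the activators, inhibitors and immunosubunits, 1 of 4 tested was called higher and 0 lower. Psme2, a subunit of the interferon-inducible activator, stood at 169.1, 94.1 and 61.1 CPM with cisplatin, against 24.5, 48.0 and 31.5 CPM with vehicle, without overlap (1.66 ± 0.42, adjusted p = 0.0110). Its partner Psme1 was low and overlapped between groups (0.40 ± 0.68, adjusted p = 0.722). Psme3 held 19 counts with cisplatin and 10 with vehicle, and Psme4 held 14 with cisplatin and 47 with vehicle, too few to test. Vehicle libraries were deeper, and these counts are not scaled. In CPM Psme3 stood at 5.92, 8.56 and 3.22 with cisplatin, against 1.98, 0.631 and 1.57 with vehicle. Psme4 stood at 5.92, 4.75 and 2.14 CPM with cisplatin, against 5.14, 3.79 and 11.0 CPM with vehicle.

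Of the assembly factors and of the subunits named otherwise, 2 of 7 tested were called higher and 0 lower. Adrm1, a ubiquitin receptor of the regulatory particle, stood at 572.5, 606.5 and 671.3 CPM with cisplatin, against 219.0, 315.7 and 328.6 CPM with vehicle. The groups were far apart relative to their spread (1.10 ± 0.27, adjusted p = 0.00912). Psmg1, a chaperone of alpha ring assembly, also rose (1.42 ± 0.41, adjusted p = 0.0210), and Pomp, the maturation factor of the core, was fitted at -0.10 ± 0.61 (adjusted p = 0.927).

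Of the transcriptional regulators of proteasome genes, 3 of 7 tested were called higher and 0 lower. They were Mafk (2.39 ± 0.34, adjusted p = 0.000296) and Maff (2.36 ± 0.67, adjusted p = 0.0193), small Maf proteins that pair with Nfe2l1 and Nfe2l2 on DNA, and Nfya (1.30 ± 0.28, adjusted p = 0.00411), a subunit of the CCAAT-binding factor NF-Y. Another NF-Y subunit, Nfyc, was fitted at -0.78 ± 0.46 (adjusted p = 0.244). Nfe2l2 held 24, 15 and 4 counts with cisplatin, against 3, 3 and 7 with vehicle, too few to test. After scaling, it stood at 20.3, 14.3 and 4.29 CPM with cisplatin, against 1.19, 1.89 and 2.755 CPM with vehicle. Nfyc and Nfe2l2 were both chosen after their values were seen. Nfe2l1 RNA stood at 173.4, 244.3 and 306.7 CPM with cisplatin, against 390.9, 252.5 and 429.8 CPM with vehicle, and was not called (-0.57 ± 0.30, adjusted p = 0.189). Ddi2, the protease that activates the Nfe2l1 protein, was not called either (-0.60 ± 0.35, adjusted p = 0.2295).

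Of the substrate unfolding and shuttling genes, 1 of 8 tested was called higher and 0 lower. Ubqln2, a shuttle that carries ubiquitinated proteins to the proteasome, stood at 627.5, 430.6 and 430.0 CPM with cisplatin, against 227.3, 322.6 and 240.1 CPM with vehicle (0.92 ± 0.28, adjusted p = 0.0284). Of the proteasome-bound deubiquitinases and ligases, 0 of 3 tested were called in edgeR's test or in DESeq2, with 1 lower at an unadjusted p under 0.05. The most abundant of them were the ligase Ube3c (-0.96 ± 0.38, adjusted p = 0.0819) and the thioredoxin-like Txnl1 (-0.19 ± 0.46, adjusted p = 0.806). Of the ubiquitin genes and activating enzymes, 0 of 5 tested were called in edgeR's test or in DESeq2, with none at an unadjusted p under 0.05. The activating enzyme Uba1 was fitted at -0.38 ± 0.39 (adjusted p = 0.517) and Ubb, a ubiquitin gene, at 0.14 ± 0.37 (adjusted p = 0.828).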

How the data were processed

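The table holds counts, which the authors deposited as whole numbers per probe and library. Tools named in the submitters' processing notes, with no role, are STAR 2.7.10b, fastp 0.23.2 and DESeq2 1.44.0. The alignment reference and probe positions are not stated in the sources used here, and rows of near-identical genes may share reads.

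The analysis used edgeR 4.0.16 (limma 3.58.1, R 4.3.3). Rows were filtered on expression with a minimum count of 10, which left 9381, and scaled with TMM factors. Treatment was tested with the robust quasi-likelihood F-test and Benjamini-Hochberg adjustment over all tested rows, two-sided, with calls at an adjusted p under 0.05. The SE of a log2 fold change comes from its F statistic. With 3 libraries a group, p-values measure the spread between libraries, which holds animal and assay variation together. Gene lists used the most abundant probe of each gene. Genomic spans and promoters come from RefSeq on GRCm38.p6, which may not be the build the authors used. The counting interval treats every count as independent. PCR copies of a molecule are counted separately, so the interval may be too narrow even for counting error.

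Named were the catalytic subunits, Psmd14 and the assembly chaperones whatever their values, called rows with the largest changes (up to 6 core and 10 regulatory), and the 2 most abundant rows of each particle. Lists of proteasome-related genes gave up to 4 called genes, or the 2 most abundant if none was called, and Nfe2l1, Ddi2, Pomp, Psme1 to Psme4 and Ubb whatever their values (1 more is not reported here); marker lists are given as counts. Psmc6, Psmd1, Psmd2 and other members given beside these were chosen after their values were seen. The members and lists were chosen with earlier results of these data known.

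The pairing comes from the labels, in which an animal identifier is shared by the cisplatin and vehicle library of each mouse. Deviations from group means correlated at -0.116, 0.0336 and 0.219 within mice, and at -0.227 to 0.168 between mice. The mouse block is an alternative, since no source states that the authors fitted it. Other alternatives were RLE factors, library totals alone, the 10 most abundant rows or the mitochondrially encoded rows left out (the last chosen after seeing the data), no filter, a mean CPM of 10 or more, DESeq2 1.42.0, probes summed per gene, thinning to 1116916 counts, and each library or mouse left out. On simulated counts for this comparison (9381 rows), edgeR called 5 of 97 rows changed 2-fold, 55 of 97 changed 4-fold and 3 of 8598 unchanged rows.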

Additional observations from a re-analysis of the deposited data

How the results depend on the processing

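Psmb3 and Psmb10 were called in all 19 alternatives. With library totals alone 2 proteasome rows were called higher and 3 lower, core and regulatory medians were 0.27 and 0.21, and a Psmd9 probe turned to -0.35, against 0.11 in the reported fit. With mitochondrially encoded rows left out, chosen after seeing the data, 0 rows were called lower. When each library or mouse was left out in turn, the rows called higher ranged between 2 and 8, the rows called lower were 0 in each, and the Psmd9 probe ranged between -0.37 and 0.36. The cause of these changes was not tested, except that fewer libraries enter the fits that leave some out. With the mouse as a replicate block 6 rows were called higher and 1 lower, as without it, with Psmc6 called in place of Psmc5. With no low-count filter 4 rows were called higher, without Psmc1 and Psmc5. Core and regulatory medians kept their sign in every alternative, but with a library or mouse left out the core median ranged between 0.33 (without mouse 1) and 0.98 (without mouse 2), against 0.65, and the regulatory median between 0.35 (without cisplatin library 2) and 0.78, against 0.62. The median of all proteasome rows was 0.30 without mouse 1, against 0.58. No other setting moved a count of calls by more than 1.5 times. Rows at or under 51 counts over 6 libraries were too shallow to test. In the simulation 5 of 97 rows changed 2-fold were called. Far fewer rows were changed there than were called in the data (25% of tested rows), which makes its adjusted threshold stricter. The simulated share therefore does not give the share of 2-fold changes missed here, and Psmc1 was called at 1.78-fold.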
